A study of Mus musculus with 40 samples.

Results

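The comparison described here set subcutaneous white fat of mice moved from a high-fat diet back to a normal diet (diet switch, 8 samples) against the same depot of mice fed only the normal diet (ND, 8 samples), 16 of the 40 samples in the series. It asked what differed from always-lean tissue after the return to a normal diet. Members were every gene whose counts passed a filter on low expression, 15807 of 34843 gene symbols. The 8 high-fat-diet (HFD) samples are given beside them as values. Genotype, strain, sex and age of the mice go unstated in the labels of every group. The labels name the switch group only as a dietary intervention from HFD to ND. The series title places a dietary intervention after incretin analog treatment, so whether these mice had received semaglutide or tirzepatide before the switch, and the length of each feeding period, were unstated in the sources used. Nothing states that the samples of a group came from separate animals. The p-values therefore measure only the spread between samples within groups, which may be technical and was estimated over all 40 samples.

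Subcutaneous white fat stores triglyceride in adipocytes. It makes fatty acids from glucose through acetyl-CoA carboxylase and fatty acid synthase, and the genes of that route rise with insulin and carbohydrate feeding and fall under a fat-rich diet. The depot also holds resident and lipid-handling macrophages, progenitors, vessels and lymphocytes, whose numbers shift with obesity. Adipocytes run a circadian clock in which CLOCK and BMAL1 (gene Arntl) drive the Period and Cryptochrome genes, and REV-ERB proteins repress Arntl in turn, so the level of these transcripts depends on the hour of collection as well as on feeding.

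Expression was measured by QuantSeq, a 3' end counting method that gives about 1 read per transcript whatever its length. Total counts lay between 2802605 and 4440695 in the diet-switch libraries and between 2879055 and 4466926 in the ND libraries. Levels are given as CPM, a gene's counts scaled to a common library size, and differences as log2 fold changes, diet switch minus ND, with their standard errors (SE). A gene was called where the adjusted p of edgeR's quasi-likelihood test, Benjamini-Hochberg corrected over all 15807 genes, was under 0.05. The depot carried its defining transcripts in both groups: 21 adipocyte identity genes summed to 19107 to 29784 CPM after the switch and to 13913 to 27425 CPM in ND, with none at 0 throughout a group. ND library 5 stood apart in B cell genes, whose mean level was 6.44 log2 CPM there. Skeletal muscle genes were high in ND libraries 6 and 8 and in diet-switch libraries 1, 3 and 6. The share of counts on 18S ribosomal RNA was 4.74% ± 0.99 (SD, n = 8) after the switch and 7.41% ± 0.93 (SD, n = 8) in ND (exact permutation test, two-sided, p = 0.0003108), and with 18S, mitochondrial, ribosomal and hemoglobin genes removed before scaling 2161 of the 2338 genes described next were still called. No other part of the 18S share in the gene differences was tested.

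After the switch 1260 genes were higher than in ND (7.97% of those tested) and 1078 were lower (6.82%), 2338 in all (14.8%), of which 630 differed by at least 2-fold. The median log2 fold change over all genes was 0.00. A fit of the 16 samples alone called 768 genes higher and 702 lower. Most of the 2338 calls were lost without 3 libraries. Diet-switch libraries 3, 4 and 7 lay at 62.1 to 80.6 on the leading axis of variation within groups, while the other diet-switch libraries lay between -32.3 and 23.5 and the ND libraries between -49.0 and 3.89. With those 3 left out, 67 genes were higher (0.407% of 16479 tested) and 45 lower (0.273%), and 110 of these 112 were among the 2338. Over the 2338 genes, the median absolute log2 fold change was 0.76 with all 8 libraries and 0.53 with 5, and the median SE went from 0.21 to 0.22. Those genes were selected with all 8 libraries, so some fall in their median is built in. Fewer samples also enter the fit with 5. Leaving out single libraries gave totals from 1321 genes, without diet-switch library 3, to 3075, without diet-switch library 2. The total was 1475 without library 4 of the same group, 1582 without library 7 and 1543 without ND library 4. In 54 genes (0.342%) all 8 diet-switch libraries lay above all 8 ND libraries and in 37 (0.234%) all lay below. Below, "with 5 libraries" means without diet-switch libraries 3, 4 and 7. Across the 15125 genes with a known transcript GC content, the log2 fold change and GC content had a Pearson correlation of -0.29, and of -0.22 with 5 libraries. That figure is across genes, which are not independent replicates, and the part of GC content in the calls was not tested beyond a fit with GC offsets, which called 995 genes higher and 790 lower.

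**Figure D1:**
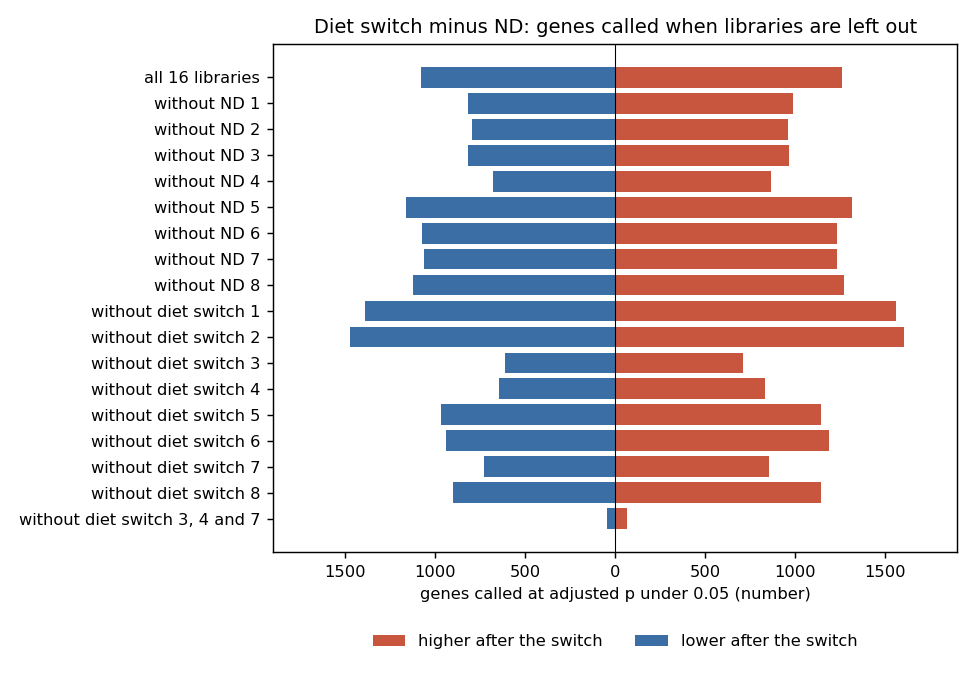
Number of genes called higher (right) and lower (left) in diet switch minus ND, with all 16 libraries, without each library in turn, and without diet-switch libraries 3, 4 and 7. Single omissions leave 1321 to 3075 genes in all, and omission of the 3 together leaves 112.

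Circadian clock genes were called in both directions. Of 18 measured clock genes 8 were higher after the switch, 3 were lower and 7 were not called, beside 14.8% of all genes called in either direction. The median log2 fold change of the list was 0.28. With 5 libraries 6 were higher and 1 lower, with a median of 0.37. The list was chosen with earlier results of these data known. Per2, Per3 and Nr1d2 were high and Arntl was low, while Per1 and Nr1d1 were not called. Collection hours were unstated in the sources used, so the switch and the hour of collection cannot be told apart.

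Promoter sequences are shown for 4 clock genes that were called with 8 and with 5 libraries, because each holds a motif through which the loop is known to act. Each run covers 250 bases before and 50 bases after the annotated start in RefSeq, build GRCm38.p6, and is written 5' to 3' on the gene's own strand. Capitals mark the E-box CACGTG, the site of CLOCK and BMAL1, in Ciart and Bhlhe41; the D-box TTATGTAA, the site of DBP, TEF, HLF and NFIL3, in Per3; and the core TAGGTCA of the REV-ERB response element in Arntl. The windows are chr3:95882179-95882478 on the minus strand for Ciart, chr6:145865371-145865670 on the minus strand for Bhlhe41, chr4:151044616-151044915 on the minus strand for Per3, and chr7:113207261-113207560 on the plus strand for Arntl.
Ciart: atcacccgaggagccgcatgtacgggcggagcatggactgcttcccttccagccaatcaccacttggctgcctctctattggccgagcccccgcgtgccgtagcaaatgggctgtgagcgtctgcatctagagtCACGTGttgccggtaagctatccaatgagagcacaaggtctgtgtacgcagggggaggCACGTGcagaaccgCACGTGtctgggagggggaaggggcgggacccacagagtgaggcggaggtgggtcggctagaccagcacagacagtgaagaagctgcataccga
Bhlhe41: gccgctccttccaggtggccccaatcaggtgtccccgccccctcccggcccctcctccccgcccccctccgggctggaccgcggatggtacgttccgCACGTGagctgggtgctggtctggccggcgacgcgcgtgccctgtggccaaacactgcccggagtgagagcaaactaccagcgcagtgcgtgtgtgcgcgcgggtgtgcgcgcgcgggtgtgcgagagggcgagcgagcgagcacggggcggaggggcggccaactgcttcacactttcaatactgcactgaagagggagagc
Per3: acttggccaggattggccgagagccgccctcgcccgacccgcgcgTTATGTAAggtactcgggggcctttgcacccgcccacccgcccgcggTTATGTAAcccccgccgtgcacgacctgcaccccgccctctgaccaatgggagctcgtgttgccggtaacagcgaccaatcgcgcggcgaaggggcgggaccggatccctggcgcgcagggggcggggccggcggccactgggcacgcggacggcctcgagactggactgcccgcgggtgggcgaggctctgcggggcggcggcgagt
Arntl: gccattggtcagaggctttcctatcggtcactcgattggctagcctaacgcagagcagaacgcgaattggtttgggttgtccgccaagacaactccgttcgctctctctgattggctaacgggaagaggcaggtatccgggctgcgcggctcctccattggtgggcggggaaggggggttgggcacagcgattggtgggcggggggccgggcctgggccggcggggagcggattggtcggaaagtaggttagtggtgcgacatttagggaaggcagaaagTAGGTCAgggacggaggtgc

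The 3 motifs were searched on both strands in 12 windows of 10 of the 11 called clock genes; Per2 had no entry. An E-box was found in 4 of the 10 genes (Ciart, Bhlhe41, Tef and Cry1), a D-box in 1 (Per3) and the REV-ERB core in 2 (Arntl, in 1 of its 2 windows, and Nfil3). Of all 32851 promoter windows of the same length, 7.15% held the E-box, 0.938% the D-box and 2.61% the TAGGTCA core. These shares are per window, while the counts before them are per gene, so the 2 are not the same measure. The 3 motifs do not overlap each other in the printed runs. A match describes letters in a window, and no factor binding was measured.

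Per2, a Period repressor of the loop (chromosome 1, 91415982 to 91459324, minus strand in GRCm38), had 16.8 CPM at the lowest, 43.2 at the median and 53.1 at the highest in the diet-switch libraries, against 2.86, 7.46 and 9.82 in ND. No diet-switch library overlapped ND. The log2 fold change was 2.31 ± 0.26 (SE; adjusted p = 2.21e-07) and 1.97 with 5 libraries (adjusted p = 4.5e-05). Its paralog Per3, whose promoter above holds 2 D-boxes, ran from 43.8 through a median of 69.1 to 95.8 CPM against 13.7, 25.7 and 36.7 in ND, again without overlap. It was higher by 1.40 ± 0.20 (adjusted p = 1.44e-05), and by 1.5 with 5 libraries. Nr1d2, which encodes REV-ERB beta, ran from 23.3 through 46.6 to 73.5 CPM against 11.3, 16.4 and 18.5, with no overlap and a log2 fold change of 1.57 ± 0.20 (adjusted p = 1.05e-06).

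Arntl, which encodes BMAL1 (chromosome 7, 113207465 to 113314126, plus strand), was lower. It ran from 2.76 through a median of 5.44 to 11.8 CPM after the switch and from 12.0 through 21.1 to 41.2 CPM in ND. The groups did not overlap, and the difference was -1.99 ± 0.36 (adjusted p = 0.000476; -1.83 with 5 libraries, adjusted p = 0.0292). HFD libraries lay between both groups in median for these genes, at 15.4 CPM for Per2 and 8.95 CPM for Arntl, with HFD minus ND at 1.08 (adjusted p = 0.00734) and -1.30 (adjusted p = 0.0183). Diet switch minus HFD was 1.23 ± 0.24 for Per2 (adjusted p = 0.00028) and -0.69 ± 0.36 for Arntl (adjusted p = 0.167). These comparisons share samples. Over all 15807 genes 712 (4.5%) were called in HFD minus ND and 3759 (23.8%) in diet switch minus HFD.

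The other called clock genes were named after their values were seen. Ciart, a repressor of CLOCK and BMAL1 with 3 E-boxes in the printed window, ran from 1.32 through 4.86 to 10.9 CPM against 0.769, 1.39 and 2.70 in ND (1.80 ± 0.41, adjusted p = 0.00344; 1.99 with 5 libraries, adjusted p = 0.0163). Bhlhe41 (DEC2), an E-box repressor, was higher by 0.97 ± 0.22 (adjusted p = 0.00359), and by 1.27 with 5 libraries. Both overlapped ND, and 7 of 8 diet-switch libraries lay above the ND median for each. Among the D-box factors, Tef was higher by 0.96 ± 0.19 (adjusted p = 0.00106) but missed the threshold with 5 libraries at 0.83 (adjusted p = 0.0501). The D-box activator Dbp ran from 1.28 through 3.40 to 7.62 CPM against 0.00, 1.01 and 2.57, with 1.55 ± 0.51 (adjusted p = 0.0339). That call was lost with 5 libraries (1.86, adjusted p = 0.0967) and without any 1 of ND libraries 2, 4, 7 and 8 or diet-switch libraries 1, 6 and 8 (1.34 to 1.49).

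The remaining calls lay near the threshold. Hlf, the third activator of this family, was higher by 0.54 ± 0.19 (adjusted p = 0.0486), and by 0.77 with 5 libraries (adjusted p = 0.0471); without any 1 of ND libraries 1, 3, 5, 7 and 8 or diet-switch libraries 1, 2, 4, 6 and 8 it was 0.40 to 0.54 and not called. Nfil3, the D-box repressor, was lower by -1.36 ± 0.45 (adjusted p = 0.0356), and Cry1, the Cryptochrome repressor, by -0.88 ± 0.31 (adjusted p = 0.0421). With 5 libraries they were -1.53 (adjusted p = 0.155) and -0.96 (adjusted p = 0.18). The Nfil3 call was also lost without any 1 of ND libraries 2, 6, 7 and 8 or diet-switch libraries 1, 2, 3, 4 and 8 (-1.34 to -1.13). For Cry1 the same held for ND libraries 2, 5, 6 and 8 and diet-switch libraries 2, 3, 5, 6 and 7 (-0.91 to -0.73). Clock, Rora, Per1, Cry2, Nr1d1 and Bhlhe40 were among the 7 not called.

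**Figure D2:**
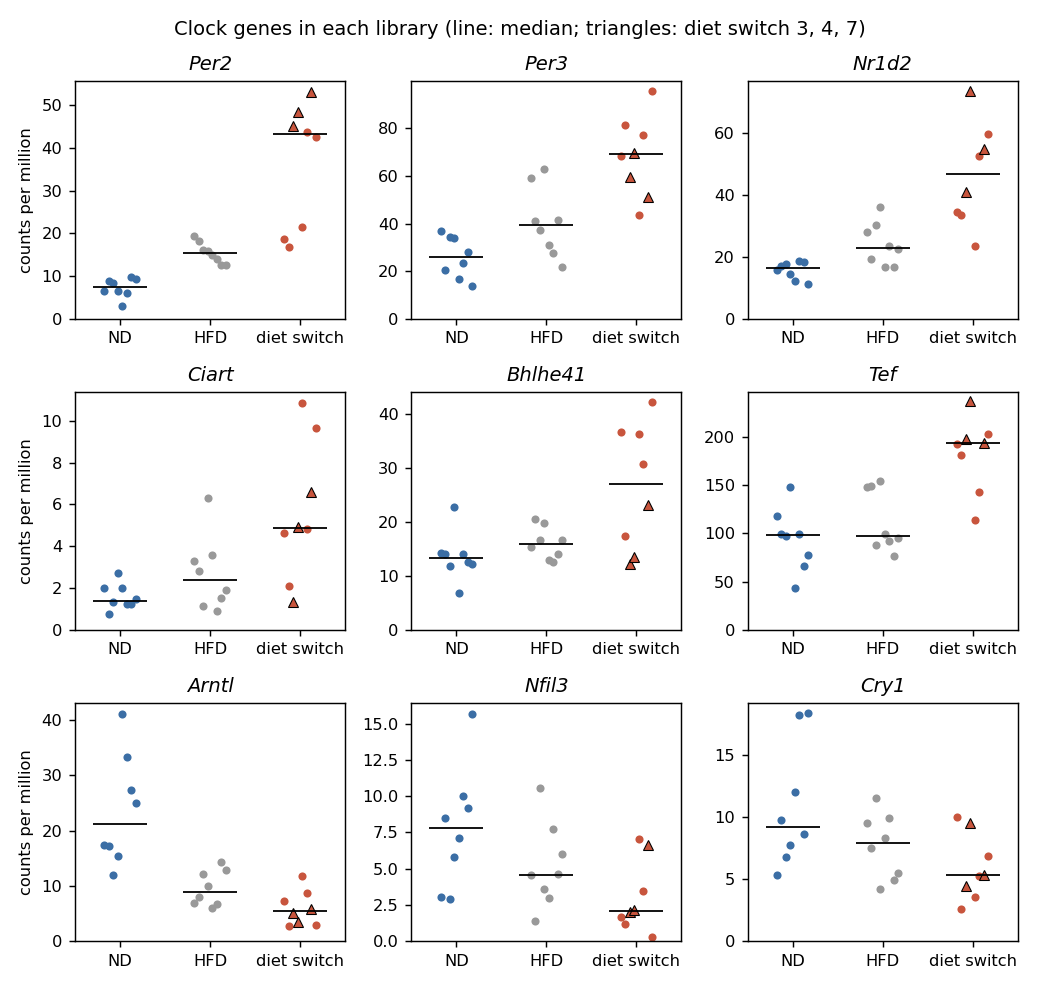
CPM of 9 clock genes in each ND, HFD and diet-switch library (8 each), with the group median as a line and diet-switch libraries 3, 4 and 7 as triangles. Per2, Per3 and Nr1d2 lie above every ND library and Arntl below every one, and the triangles do not lead the change in Per3, Ciart or Bhlhe41.

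Over all genes, those of the clock included, 104 averaging 2 log2 CPM or more were called in the same direction with 8 and with 5 libraries, 14 of them unnamed models. The 10 largest named increases included Sox11, a transcription factor known from neural development. It ran from 3.46 through 12.7 to 18.03 CPM against 0.251, 1.83 and 3.91 in ND, and 8 of 8 libraries lay above the ND median (2.63 ± 0.49, adjusted p = 0.000633). Flywch1, a zinc finger protein (chromosome 17, 23752793 to 23771602, minus strand), ran from 146 through 236 to 332 CPM against 43.2, 62.4 and 94.5. The groups were fully separate, with 1.81 ± 0.22 (adjusted p = 1.05e-06) and 1.85 with 5 libraries. HFD minus ND for Flywch1 was 0.47 (adjusted p = 0.253), and diet switch minus HFD was 1.35 ± 0.22 (adjusted p = 1.95e-05).

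Gnal, a stimulatory G protein subunit that couples receptors to adenylyl cyclase, ran from 9.45 through 18.2 to 40.0 CPM against 1.51, 5.53 and 9.21, without overlap (2.14 ± 0.35, adjusted p = 0.000159). Rnf128, a ubiquitin ligase known from T cell anergy, was higher by 2.38 ± 0.53 (adjusted p = 0.00324). Rbp7, a retinol-binding protein, was higher by 1.97 ± 0.28 (adjusted p = 1.39e-05), with HFD minus ND at 1.44 (adjusted p = 0.000592). Both overlapped ND although 8 of 8 libraries lay above its median. Fcgr4, an activating receptor for immunoglobulin G on myeloid cells, ran from 4.76 through 6.71 to 19.4 CPM against 2.45, 2.89 and 4.24, with no overlap (1.65 ± 0.34, adjusted p = 0.00136). Timp1, an inhibitor of matrix metalloproteinases, spread from 2.27 to 62.0 CPM after the switch and from 1.93 to 7.83 in ND (1.73 ± 0.40, adjusted p = 0.00384; 2.08 with 5 libraries). Without diet-switch library 5 Timp1 was at 0.93 (adjusted p = 0.045). Phf20-ps at 2.15 ± 0.35 (adjusted p = 0.000131) is an annotated pseudogene whose reads may belong to Phf20. Unc45bos at 1.76 ± 0.34 (adjusted p = 0.000732) overlaps exons of Unc45b on the other strand, and whether counting used strand is not given in the sources used here. Exons of Gnal, Flywch1, Arntl, Cdkn1a and Mid1ip1 also overlap another annotated gene on the other strand.

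Cdkn1a and Osgin1 were among the largest decreases. Cdkn1a, which encodes the cell cycle inhibitor p21 (chromosome 17, 29090976 to 29100727, plus strand), ran from 58.9 through 95.0 to 148 CPM after the switch and from 165 through 278 to 409 in ND. The groups did not overlap (-1.62 ± 0.23, adjusted p = 1.39e-05; -1.45 with 5 libraries). Its HFD median was 371 CPM, and diet switch minus HFD was -2.03 ± 0.23 (adjusted p = 7.44e-08). Osgin1, an oxidative stress response gene, ran from 1.92 through 3.19 to 7.37 CPM against 10.01, 18.2 and 23.4, also without overlap (-2.07 ± 0.28, adjusted p = 6.46e-06). For Osgin1 HFD minus ND was -0.05 (adjusted p = 0.942) and diet switch minus HFD -2.02 ± 0.28 (adjusted p = 1.51e-06).

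G0s2, an inhibitor of the triglyceride lipase ATGL, ran from 118 through 208 to 380 CPM against 282, 744 and 1213 (-1.67 ± 0.34, adjusted p = 0.00183; adjusted p = 0.0466 with 5 libraries). Orm3, an acute-phase orosomucoid, was lower by -1.67 ± 0.30 (adjusted p = 0.000391), with HFD minus ND at -2.45. Dtx4, a ubiquitin ligase of the Deltex family, was lower by -1.41 ± 0.19 (adjusted p = 6.46e-06). For each of the 3, all 8 diet-switch libraries lay below the ND median. Eif1-ps2 at -1.63 ± 0.32 (adjusted p = 0.00107) is a pseudogene of Eif1, and the assignment of its reads is uncertain.

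Some small and ribosomal RNA genes were among the decreases. They were picked by the size of their change or after their values were seen, and the other genes of these kinds were not counted. Whether the reads of this 3' end method came from the mature RNAs or from other transcripts was not tested. Snord89, a small nucleolar RNA that guides RNA modification, ran from 36.5 through 75.0 to 141 CPM against 232, 303 and 683 in ND, with no overlap (-2.11 ± 0.28, adjusted p = 6.46e-06). Snora30, another such RNA, was lower by -1.67 ± 0.45 (adjusted p = 0.0108). The mitochondrial ribosomal RNA mt-Rnr1 and the 18S gene Rn18s-rs5 were named after their values were seen, at -0.98 ± 0.19 (adjusted p = 0.000732) and -0.73 ± 0.21 (adjusted p = 0.0152). mt-Rnr1 ran from 11037 to 22306 CPM after the switch and from 23696 to 34985 in ND, without overlap. Mitochondrial counts as a whole were 15.2% ± 3.7 (SD, n = 8) against 14.8% ± 2.1 (SD, n = 8; exact permutation test, two-sided, p = 0.81). With the 18S, mitochondrial, ribosomal and hemoglobin genes removed before scaling, 1151 genes were higher and 1061 lower.

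**Figure D3:**
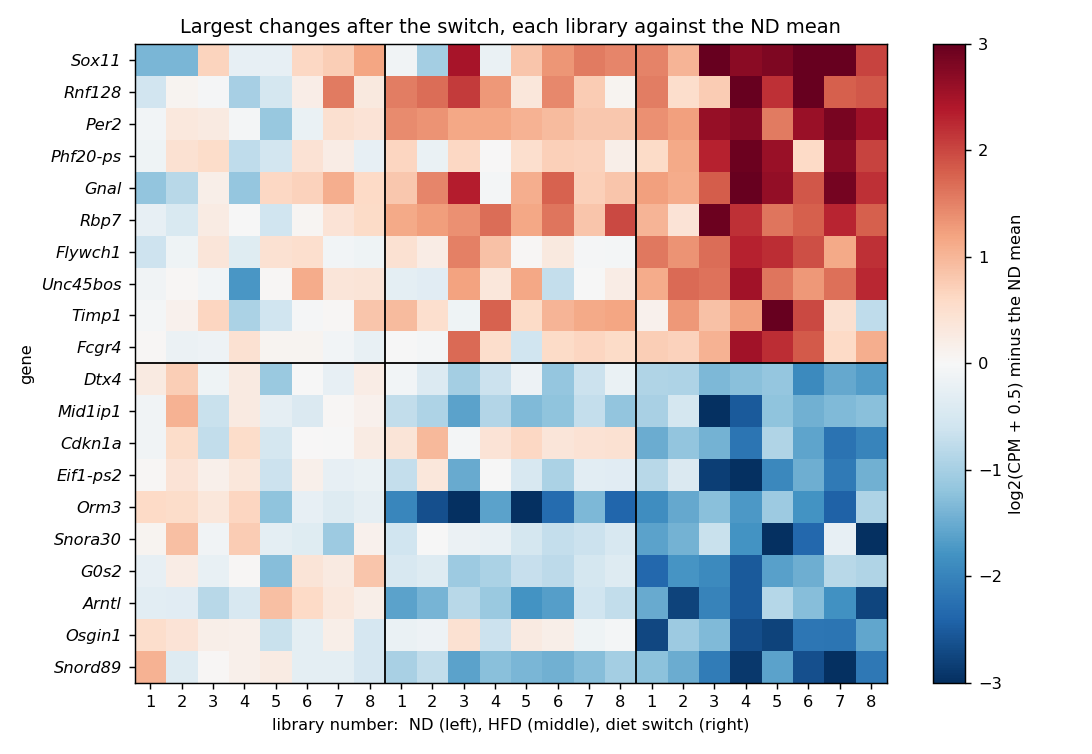
Heat map of the 10 largest named increases and 10 largest named decreases (rows) in each ND, HFD and diet-switch library (columns), as log2(CPM + 0.5) minus the ND mean. Diet-switch columns are red in the upper block and blue in the lower block almost throughout. In the HFD columns Osgin1 stays near the ND level and Cdkn1a is mostly above it.

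The shares over all genes, against which the counts of each list stand, were 7.97% higher and 6.82% lower with 8 libraries and 0.407% and 0.273% with 5. Of 20 measured fatty acid synthesis genes none was higher, 7 were lower and 13 were not called, with a median of -0.54 (-0.30 with 5 libraries, where 1 was lower). Fasn, fatty acid synthase, ran from 635 through 2708 to 6492 CPM after the switch and from 2936 through 4577 to 6859 in ND, with HFD at 736 through 1036 to 1247. The difference from ND was -0.55 ± 0.34 (adjusted p = 0.274), beside -2.29 for HFD minus ND (adjusted p = 3.45e-05). Acaca, acetyl-CoA carboxylase, was at -0.39 ± 0.25 (adjusted p = 0.3) beside -2.71 in HFD. The diet-switch libraries spread more widely in Fasn than ND did, and overlapped both groups.

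The other enzymes and Srebf1 were not called either. Acly, which makes cytosolic acetyl-CoA from citrate, was at -0.18 ± 0.32 (adjusted p = 0.76) and Elovl6, a fatty acid elongase, at -0.25 ± 0.39 (adjusted p = 0.712), beside HFD values of -2.15 and -2.75. Scd1, the stearoyl-CoA desaturase, was at 0.01 ± 0.20 (adjusted p = 0.981) beside -1.80, and its medians were 11199 CPM after the switch and 11071 in ND. Acss2, which activates acetate, was at -0.53 ± 0.30 (adjusted p = 0.232), and Srebf1, the lipogenic transcription factor, at -0.14 ± 0.33 (adjusted p = 0.81). A p above the threshold does not show that these levels were equal to ND.

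The lower members were led by Mid1ip1, which promotes the polymerisation of acetyl-CoA carboxylase. It ran from 6.38 through 25.8 to 44.5 CPM against 39.7, 62.5 and 133 (-1.47 ± 0.25, adjusted p = 0.000254), and it was the member still called with 5 libraries (-1.14, adjusted p = 0.0106). Fads1, the delta-5 desaturase, was lower by -0.69 ± 0.17 (adjusted p = 0.0055), and Mlxipl, which encodes the carbohydrate sensor ChREBP, by -0.68 ± 0.17 (adjusted p = 0.00628). Insig1, a sterol-responsive anchor of SREBP, was lower by -1.12 ± 0.29 (adjusted p = 0.00822). With 5 libraries these 3 were at -0.52 (adjusted p = 0.153), -0.67 (adjusted p = 0.0808) and -0.80 (adjusted p = 0.203).

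**Figure D4:**
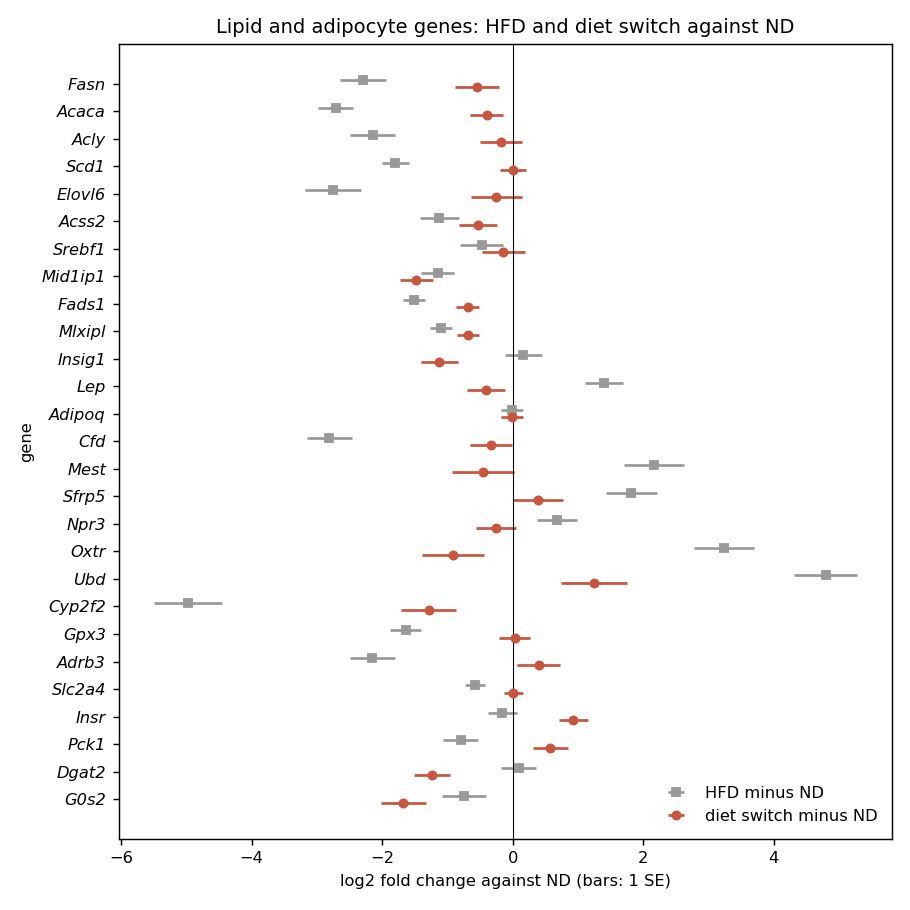
Log2 fold change against ND with 1 SE for 27 lipid and adipocyte genes, HFD as grey squares and diet switch as red circles; both use the same 8 ND libraries. Fasn, Acaca, Acly, Scd1, Elovl6, Cfd and Adrb3 lie far below 0 in HFD and within 0.55 of it after the switch, while Dgat2, G0s2 and Mid1ip1 lie at -1.23, -1.67 and -1.47 after the switch.

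Of 17 lipolysis and lipid droplet genes 3 were higher and 1, G0s2, was lower (median 0.15; with 5 libraries G0s2 alone was called), and of 16 genes of triglyceride synthesis and glyceroneogenesis 2 were higher and 1 lower (median 0.03; none with 5 libraries). Dgat2, which adds the last fatty acid of a triglyceride, ran from 346 through 898 to 1696 CPM against 860, 1799 and 3834 (-1.23 ± 0.27, adjusted p = 0.00272), with HFD minus ND at 0.09. Plin5, a droplet coat protein of oxidative cells, was higher by 1.23 ± 0.27 (adjusted p = 0.00239). Mgll, the monoglyceride lipase, was higher by 0.61 ± 0.17 (adjusted p = 0.0124), and Pde3b, the phosphodiesterase through which insulin restrains lipolysis, by 0.79 ± 0.21 (adjusted p = 0.0104). All 4 missed the threshold with 5 libraries, at -0.91 (adjusted p = 0.115), 0.86 (0.143), 0.52 (0.174) and 0.62 (0.198).

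Fatty acid uptake had 4 of 16 genes higher and 1 lower (median 0.32; 1 higher with 5 libraries). Angptl8, a feeding-induced inhibitor of lipoprotein lipase, ran from 0.00 through 1.54 to 9.10 CPM after the switch and from 1.72 through 19.0 to 62.1 in ND (-2.92 ± 0.66, adjusted p = 0.00354; -2.69 with 5 libraries, adjusted p = 0.086). Acsl1, an acyl-CoA synthetase, was higher by 0.83 ± 0.21 (adjusted p = 0.00681) and Gpihbp1, the capillary anchor of lipoprotein lipase, by 0.82 ± 0.20 (adjusted p = 0.00488). Neither was called with 5 libraries (0.71, adjusted p = 0.135, and 0.51, adjusted p = 0.233). Of 22 fatty acid oxidation genes 5 were higher and 1 lower (median 0.41; none called with 5 libraries, median 0.29). Decr1 and Etfb, which act in fatty acid oxidation and electron transfer, were higher by 0.69 and 0.59 (adjusted p = 0.0048 and 0.00746), and by 0.54 and 0.48 with 5 libraries (adjusted p = 0.143 and 0.145).

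Of 30 nuclear-encoded subunits of the respiratory chain none was higher and 5 were lower (median -0.25, and -0.05 with 5 libraries, where none was called). Of its 13 mitochondrially encoded genes 1 was higher and none lower (median 0.42, and 0.37 with 5 libraries, where none was called). Cox8a, a subunit of complex IV, was lower by -0.73 ± 0.18 (adjusted p = 0.00595) and Uqcrq, of complex III, by -0.54 ± 0.15 (adjusted p = 0.0113), and both were nearer ND with 5 libraries (-0.51, adjusted p = 0.174, and -0.38, adjusted p = 0.241). Ucp1, the uncoupling protein of brown and beige adipocytes, ran from 0.00 through 2.71 to 9.23 CPM after the switch and from 0.00 through 0.644 to 43.0 in ND, where ND library 6 held the highest value. Its log2 fold change was -0.78 ± 1.06 (adjusted p = 0.661) and 2.30 without that library (adjusted p = 0.142). Adrb3, the adipocyte adrenergic receptor, was at 0.40 ± 0.33 (adjusted p = 0.437), beside -2.15 in HFD (adjusted p = 7.56e-05). Prdm16, a transcription factor of beige adipocytes, was higher by 0.66 ± 0.20 (adjusted p = 0.0188; 0.70 with 5 libraries, adjusted p = 0.124).

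Of 23 measured genes of cholesterol synthesis and uptake none was higher, 9 were lower (6.82% of all genes were) and 14 were not called, with a median of -0.60 (-0.39 with 5 libraries, where 1 was lower). The corresponding median of HFD minus ND was -0.12. Dhcr7, the last enzyme of the pathway, ran from 5.28 through 10.3 to 13.1 CPM against 11.3, 20.6 and 35.9 in ND (-1.15 ± 0.21, adjusted p = 0.000391), and it was the gene still called with 5 libraries (-0.94, adjusted p = 0.0356). All 8 diet-switch libraries were below the ND median for it. Mvd and Fdft1, which act at mevalonate and squalene steps, were lower by -1.27 and -0.88 (adjusted p = 0.00269 and 0.00674), and by -1.06 and -0.70 with 5 libraries (adjusted p = 0.106 and 0.155). Exons of Fdft1 overlap Ctsb on the other strand. Hmgcs1, an early step, was at -0.11 ± 0.23 (adjusted p = 0.8), beside 1.08 in HFD (adjusted p = 0.00245). Mylip, a ubiquitin ligase induced by sterol-sensing LXR receptors, was higher by 0.90 ± 0.20 (adjusted p = 0.00324; 0.65 with 5 libraries, adjusted p = 0.143).

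**Figure D5:**
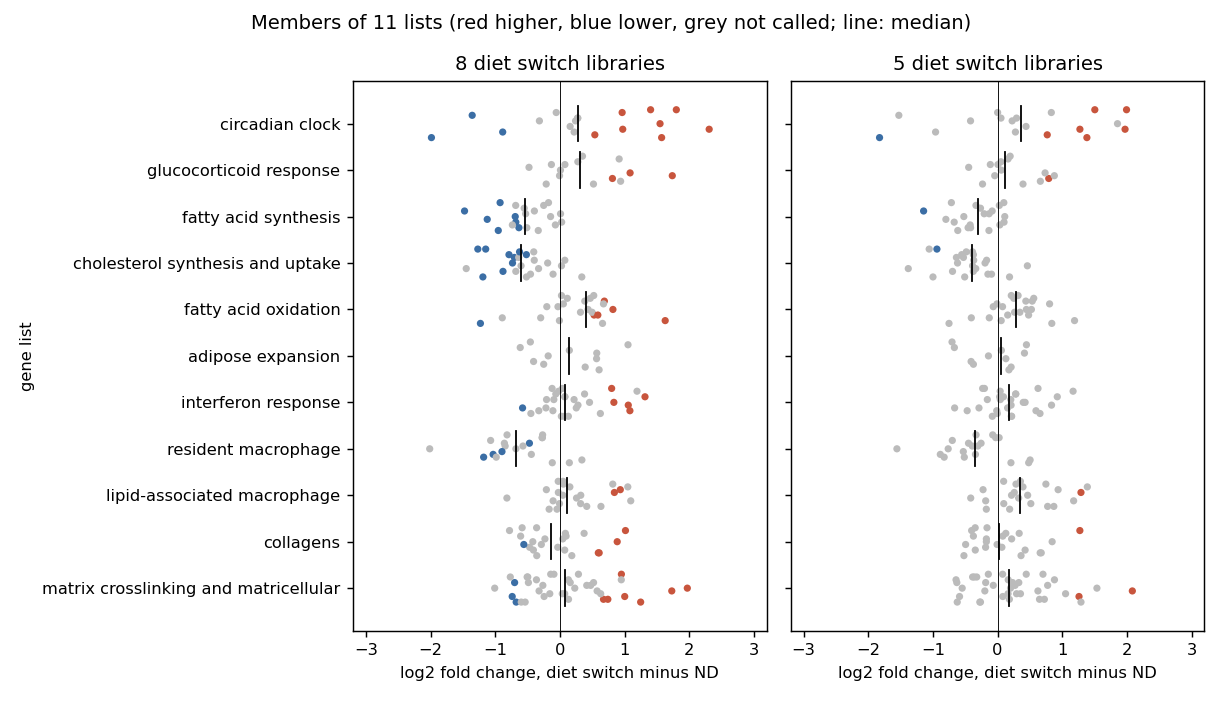
Log2 fold changes of every measured member of 11 gene lists in diet switch minus ND, with 8 (left) and 5 (right) diet-switch libraries; red and blue mark genes called higher and lower, and the line is the list median. In every list with called members on the left, fewer are called on the right, where the clock list holds 7.

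None of 11 adipose expansion genes was called in either direction (median 0.15). Lep, which encodes leptin, ran from 355 through 407 to 850 CPM after the switch, from 147 through 650 to 1110 in ND and from 1629 through 1868 to 1999 in HFD (-0.41 ± 0.29 against ND, adjusted p = 0.357). Mest and Sfrp5, which mark expanding adipocytes, were at -0.46 ± 0.48 (adjusted p = 0.556) and 0.39 ± 0.38 (adjusted p = 0.527), beside 2.17 and 1.82 in HFD. Npr3, the natriuretic peptide clearance receptor, was at -0.25 ± 0.31 (adjusted p = 0.62), and Oxtr, the oxytocin receptor, at -0.91 ± 0.48 (adjusted p = 0.195), beside 3.24 in HFD for Oxtr.

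Ubd is a ubiquitin-like modifier. It ran from 3.41 through 5.62 to 11.7 CPM after the switch, from 0.754 through 1.24 to 8.58 in ND and from 29.8 through 75.7 to 108 in HFD. The diet-switch libraries lay below every HFD library and overlapped ND, with 8 of 8 above the ND median. The difference from ND was 1.25 ± 0.50 (adjusted p = 0.0866); it was called without ND library 5 (1.76, adjusted p = 0.0188) and without ND library 7 (1.56, adjusted p = 0.041). Cyp2f2, a cytochrome P450 almost lost in HFD, ran from 29.2 through 48.3 to 80.2 CPM against 52.2, 118 and 248 in ND and 0.220, 3.84 and 9.32 in HFD. It was lower than ND by -1.29 ± 0.42 (adjusted p = 0.0347), and higher than HFD by 3.69 ± 0.51 (adjusted p = 3.28e-06). The call against ND was lost with 5 libraries (-1.11, adjusted p = 0.275) and without any 1 of ND libraries 1, 3 and 4 or diet-switch libraries 3, 4, 5 and 7 (-1.30 to -1.09).

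Of 21 adipokine and complement genes 3 were higher and 4 lower (median -0.25; none called with 5 libraries). Nrg4, an adipocyte ligand of ErbB receptors, was higher by 1.10 ± 0.20 (adjusted p = 0.000488; 0.75 with 5 libraries, adjusted p = 0.0747). Retn, which encodes resistin, and Rbp4, a retinol carrier, were lower by -0.65 and -0.76 (adjusted p = 0.0149 and 0.0156), and by -0.50 and -0.51 with 5 libraries (adjusted p = 0.245 and 0.265). Adipoq, which encodes adiponectin, was at -0.01 ± 0.17 (adjusted p = 0.986). Cfd, which encodes adipsin, was at -0.33 ± 0.32 (adjusted p = 0.523) with a median of 3903 CPM, against 4810 in ND and 643 in HFD. The antioxidant enzyme Gpx3 was at 0.03 ± 0.23 (adjusted p = 0.944), beside -1.64 in HFD.

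In the insulin signalling and glucose transport list 4 of 23 genes were higher and 2 lower (median 0.02; none called with 5 libraries). Insr, the insulin receptor, ran from 30.2 through 57.8 to 108 CPM against 22.4, 32.5 and 39.7 (0.93 ± 0.22, adjusted p = 0.00395; 0.48 with 5 libraries, adjusted p = 0.277). Gys1, glycogen synthase, was higher by 0.92 ± 0.18 (adjusted p = 0.000897) and 0.50 with 5 libraries (adjusted p = 0.151). Slc2a4, which encodes the insulin-responsive transporter GLUT4, was at 0.01 ± 0.15 (adjusted p = 0.966), and Pck1, the enzyme of glyceroneogenesis, at 0.58 ± 0.27 (adjusted p = 0.134).

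Glucocorticoid-responsive genes had 3 of 14 members higher and none lower (median 0.31; 1 higher with 5 libraries), beside 14.8% of all genes called, so the count is no result about the list. Klf9, a transcription factor induced by glucocorticoids and also linked to the clock, ran from 431 through 549 to 844 CPM against 184, 346 and 397 in ND. The groups did not overlap (0.81 ± 0.17, adjusted p = 0.00122; 0.79 with 5 libraries, adjusted p = 0.0237). Zbtb16 and Sgk1, a transcription factor and a kinase induced by the same hormone, were higher by 1.74 ± 0.32 (adjusted p = 0.000719) and 1.09 ± 0.24 (adjusted p = 0.00235). With 5 libraries they were at 0.88 (adjusted p = 0.106) and 0.74 (adjusted p = 0.145). Among heat shock and unfolded protein response genes 3 of 24 were higher and 4 lower (median -0.10; 1 lower with 5 libraries). Hsp90aa1 was higher by 1.01 ± 0.24 (adjusted p = 0.00401), while the chaperones Hspb1 and Hspa8 were lower by -1.18 ± 0.26 (adjusted p = 0.00292) and -0.53 ± 0.13 (adjusted p = 0.00452). With 5 libraries these were 0.75 (adjusted p = 0.154), -1.26 (adjusted p = 0.0502) and -0.52 (adjusted p = 0.0577), and the endoplasmic reticulum chaperone Pdia4 was lower with 8 (-0.56, adjusted p = 0.0118) and with 5 (-0.66, adjusted p = 0.048).

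In whole tissue, fewer cells of a type and less RNA per cell cannot be told apart. Of 19 resident macrophage genes none was higher and 4 were lower, with a median of -0.68 (-0.34 and none called with 5 libraries); the 20 genes of the list present in the table summed to 1227 to 3286 CPM against 1911 to 3970. Mgl2, a lectin of these cells, ran from 39.7 through 50.5 to 96.5 CPM against 63.5, 130 and 174 (-1.03 ± 0.21, adjusted p = 0.00114; -0.89 with 5 libraries, adjusted p = 0.0631). The lectin Cd209g, the ligand Gas6 and the transcription factor Maf were at -1.18, -0.90 and -0.47 (adjusted p = 0.0301, 0.0279 and 0.0341). Those 3 calls were lost with 5 libraries (-0.83, -0.53 and -0.25) and without several single libraries: 3, 4, 7 and 8 of the diet switch and 4 of ND for all 3 genes, and also diet-switch library 5 and ND libraries 2 and 3 for Gas6, ND libraries 1 and 3 for Cd209g, and ND libraries 1 and 2 for Maf. Their values then lay between -1.13 and -0.38.

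Of 22 lipid-associated macrophage genes 2 were higher and none lower (median 0.10), and the list summed to 8727 to 14331 CPM against 8682 to 13617. The list includes Lpl, also an adipocyte identity gene here, and Trem2 held at most 28.6 CPM in any diet-switch or ND library. The sum therefore does not follow these macrophages alone. Lipa, the lysosomal acid lipase, was higher by 0.84 ± 0.29 (adjusted p = 0.0426) and by 1.29 with 5 libraries (adjusted p = 0.00418); without any 1 of ND libraries 2, 3, 4, 5, 6 and 8 or diet-switch libraries 1, 5 and 6 it was 0.60 to 0.86 and not called. Gpnmb, a glycoprotein of lipid-laden macrophages, was higher by 0.93 ± 0.32 (adjusted p = 0.0467), and it was not called with 5 libraries (0.94, adjusted p = 0.222) or without any 1 library other than ND 7 and diet-switch 2 and 8 (0.84 to 0.99). Trem2, the receptor that defines these cells, was at 1.05 ± 0.46 (adjusted p = 0.112), and Itgax, which encodes CD11c, at -0.11 ± 0.31 (adjusted p = 0.855), beside 1.75 and 1.41 in HFD. The chemokine Ccl2 was at 1.03 ± 0.47 (adjusted p = 0.133).

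Interferon-response genes had 5 of 28 members higher and 1 lower (median 0.08; none with 5 libraries), a share near the 14.8% of all genes called. Cxcl9, a chemokine induced by interferon gamma, ran from 27.8 through 61.0 to 103 CPM against 14.1, 21.3 and 44.8 (1.32 ± 0.24, adjusted p = 0.00043; 0.92 with 5 libraries, adjusted p = 0.0577). Ifi27l2a and Rsad2, interferon-stimulated genes, were higher by 1.08 ± 0.20 (adjusted p = 0.000391) and 1.06 ± 0.24 (adjusted p = 0.00341). With 5 libraries they were at 0.59 (adjusted p = 0.11) and 0.83 (adjusted p = 0.117). Stat2, a transcription factor of the same response, was lower by -0.58 ± 0.17 (adjusted p = 0.017; -0.66 with 5 libraries, adjusted p = 0.0951).

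Of the antibody transcripts Igha was lower with 8 and with 5 libraries. Igha, the heavy chain of immunoglobulin A, had 0, 0, 0, 16, 1, 1, 0 and 0 counts in diet-switch libraries 1 to 8 and 17, 36, 81, 30, 20, 3, 15 and 18 in ND libraries 1 to 8. Only diet-switch library 4 reached the ND range. The log2 fold change was -3.56 ± 0.72 (adjusted p = 0.00142), and the call held with 5 libraries (-5.78, adjusted p = 0.000372). Single omissions gave -6.18, without diet-switch library 4, to -3.13. These fitted values depend on how counts of 0 are treated and are no bound. Of 6 measured plasma cell genes 3 were lower (median -1.75). The other two, Ighm at -1.38 ± 0.42 (adjusted p = 0.024) and Igkc at -3.22 ± 1.04 (adjusted p = 0.0335), were not called with 5 libraries (-1.03, adjusted p = 0.278, and -3.0, adjusted p = 0.256). They were not called without ND library 5 either (-1.17 for Ighm and -0.11 for Igkc), nor without any 1 of diet-switch libraries 3, 4 and 7 (-1.33 to -1.23 and -3.26 to -3.11). ND library 5 held 1049 CPM of Igkc, against a median of 18.1 in ND and 17.7 after the switch.

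The same ND library carried the lymph node genes. Ccl21a, a lymphoid chemokine, and Prox1, the master factor of lymphatic endothelium, were 2 of 6 genes of that list called lower (-4.83, adjusted p = 0.0169, and -2.95, adjusted p = 0.0185); without ND library 5 they were -1.86 (adjusted p = 0.322) and -1.97 (adjusted p = 0.089), and with 5 libraries -4.30 (adjusted p = 0.207) and -2.60 (adjusted p = 0.216). Of 19 T and NK cell genes 1 was higher and 1 lower. Il1rl1, which encodes the interleukin 33 receptor ST2, ran from 7.39 through 15.5 to 29.1 CPM against 4.24, 6.81 and 10.97 (1.12 ± 0.27, adjusted p = 0.00488; 1.14 with 5 libraries, adjusted p = 0.0603). Icos, a T cell costimulator, was lower by -2.57 (adjusted p = 0.0156), by -1.31 without ND library 5 (adjusted p = 0.164) and by -2.52 with 5 libraries (adjusted p = 0.174).

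Of 22 collagens 4 were higher and 1 lower (median -0.13; 1 higher with 5 libraries), and of 37 crosslinking, elastic fibre and matricellular genes 7 were higher and 3 lower (median 0.07; 2 higher with 5 libraries). Col1a2, a chain of type I collagen, ran from 1670 through 3518 to 10669 CPM against 1139, 2441 and 2804 (1.01 ± 0.27, adjusted p = 0.0109; 1.27 with 5 libraries, adjusted p = 0.0213). The highest value was in diet-switch library 5, without which it was 0.67 (adjusted p = 0.058). The partner chain Col1a1 was at 0.07 ± 0.25 (adjusted p = 0.873). Col3a1 and Col6a3, fibrillar and microfibrillar collagens, were higher by 0.61 and 0.59 (adjusted p = 0.0134 and 0.0132), and by 0.68 and 0.66 with 5 libraries (adjusted p = 0.067 and 0.0577). Lum, the collagen-binding proteoglycan lumican, ran from 17.4 through 57.6 to 127 CPM against 17.7, 30.3 and 51.9 (1.00 ± 0.25, adjusted p = 0.00603; 1.26 with 5 libraries, adjusted p = 0.00418). Thbs1 and Sparcl1, matricellular proteins, were higher by 1.97 and 0.95 (adjusted p = 0.00152 and 0.00119), and by 1.54 and 0.70 with 5 libraries (adjusted p = 0.0554 and 0.0888).

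Of 20 cell cycle genes 3 were higher and 1, Cdkn1a, was lower (median 0.30; 1 higher and 1 lower with 5 libraries), near the 14.8% of all genes called. Mki67, a marker of dividing cells, ran from 3.23 through 12.0 to 39.1 CPM against 1.16, 4.05 and 8.58 (1.51 ± 0.42, adjusted p = 0.0128; 1.79 with 5 libraries, adjusted p = 0.0458). Without diet-switch library 6 it was 1.01 (adjusted p = 0.0706). Pcna and Ccna2, a replication clamp and a cyclin, were higher by 0.66 and 1.30 (adjusted p = 0.03 and 0.0312). They were not called with 5 libraries (0.84, adjusted p = 0.0694, and 1.39, adjusted p = 0.144). Nor were they called without any 1 of diet-switch libraries 1 and 6 and ND libraries 1 and 2 for Pcna (0.54 to 0.63), or of diet-switch libraries 3, 4 and 6 and ND libraries 1, 3 and 4 for Ccna2 (1.06 to 1.30).

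Acta2, smooth muscle actin, ran from 82.7 through 133 to 272 CPM against 93.5, 308 and 907 (-1.42 ± 0.34, adjusted p = 0.00576; -1.35 with 5 libraries, adjusted p = 0.115), and Mylk, a smooth muscle kinase, was lower by -0.75 ± 0.19 (adjusted p = 0.00761; -0.61 with 5 libraries, adjusted p = 0.171). In that list of 10 genes 1 was higher and 2 lower (median -0.15). Igfals and Igfbp4, carriers of insulin-like growth factor, were lower by -1.41 and -0.87 (adjusted p = 0.00298 and 0.00478), and by -1.16 and -0.65 with 5 libraries (adjusted p = 0.103 and 0.162). Of 9 measured insulin-like growth factor and binding protein genes 1 was higher and 2 were lower (median -0.54, and none called with 5 libraries). The glutathione transferases Gstm1 and Gsta3 were lower by -0.91 and -0.85 (adjusted p = 0.00288 and 0.0136), and by -0.65 and -0.74 with 5 libraries (adjusted p = 0.141 and 0.166). Of 21 antioxidant enzyme genes 1 was higher and 3 were lower (median 0.03). Xenobiotic metabolism had 1 of 18 genes higher and 3 lower (median 0.05). None of either list was called with 5 libraries. Bnip3, a mitophagy receptor induced by hypoxia, was higher by 1.51 ± 0.30 (adjusted p = 0.000933), and by 1.20 with 5 libraries (adjusted p = 0.0577). Of 17 measured hypoxia and glycolysis genes 1 was higher and 2 were lower (median -0.16, and none called with 5 libraries). Among 30 ribosomal protein genes 1 was higher and 5 lower (median -0.21; none with 5 libraries). Rpsa, Rpl35 and Rpl38 were at 0.85, -0.98 and -0.73 (adjusted p = 0.00576, 0.00119 and 0.00696), and at 0.45, -0.66 and -0.52 with 5 libraries (adjusted p = 0.299, 0.103 and 0.202); these genes have many pseudogene copies, so their counts are uncertain.

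Several lists had no called member. None of 17 adipose progenitor genes (median -0.20), 15 skeletal muscle genes (median -0.40), 17 major urinary protein genes (median -0.48), 9 Schwann cell genes (median 0.11), 7 nuclear-retained RNAs (median 0.35) or 5 red blood cell genes (median -0.41) passed the test in either direction. Endothelial genes were higher in 3 of 14 cases and class II antigen presentation genes lower in 2 of 12, with medians of 0.14 and -0.48, and none of these was called with 5 libraries.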

How the data were processed

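RNA from subcutaneous white fat was made into Lexogen QuantSeq libraries and sequenced on an Illumina HiSeq 4000, per the labels' protocols. The authors deposited 1 table of raw counts per gene symbol, with 1 column per sample and genome build mm10, per the submitters' processing notes. Which aligner, counting tool, strand setting and annotation were used is not given in the sources used here. A second table of normalized values was not used; 16 of its columns match no sample of the series. The gene lists, the named-gene rule and the left-out libraries were chosen with earlier results of these data known.

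Genes were kept with edgeR's filterByExpr by group, which left 15807 of 34843 symbols (630 had no count) and 99.4% of counts. A quasi-likelihood model (edgeR 4.0.16, R 4.3.3, TMM scaling, robust, 1 mean for each of the 5 groups, all 40 samples) gave each log2 fold change. P-values were Benjamini-Hochberg adjusted over all genes tested. The SE is the absolute log2 fold change divided by the square root of the F statistic. CPM used TMM-scaled library sizes. Depth, 2802605 counts in the smallest library compared, sets the counting error of low genes. The model was tested on simulated counts for 15807 genes with 200 changed. It called 64.2% of the 2-fold changes, 13.4% of the 1.5-fold changes and 93.9% of the 4-fold changes, and 3 of the unchanged genes. These figures hold for the simulated counts only. They give no error rate for the real libraries, where some diet-switch libraries stood apart from the rest of their group over many genes.

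Named genes were the 10 largest changes each way that were called with and without diet-switch libraries 3, 4 and 7 at a mean of at least 2 log2 CPM, members of each list with the smallest adjusted p (up to 4), and a set of 32 lipid, adipokine, immune, matrix and clock genes named whether called or not. Gene positions and exon overlaps came from GENCODE M21 (GRCm38) and promoter sequences from the RefSeq table of GRCm38.p6. Alternatives were DESeq2 1.42.0 (test and size factors), limma-voom 3.58.1 with quality weights, other filters, a test against a 1.5-fold change, GC offsets, removal of abundant RNAs, a fit of the 16 samples alone, the replicate number as a block, and omission of libraries. No 2 libraries of a group matched within sampling noise (smallest chi-square per degree of freedom 5.75). The labels give no batch or date, and library numbers run by group, so any order of preparation and the group cannot be told apart. Values of some list members are not reported here.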

Additional observations from a re-analysis of the deposited data

Results flagged for a closer look

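In 288 groups of 8 values (the ND and the diet-switch values of each named gene, on the log2(CPM + 0.5) scale, and of 8 library measures), 22 held 1 library set far from the other 7, by Dixon's gap test at 95%. Chance alone flags about 1 in 20 such groups.

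ND library 5 was the far library in 13 of them. It was high in lymphocyte and antibody genes: B cell genes averaged 6.44 log2 CPM and T and NK cell genes 4.09 log2 CPM, Igkc stood at 1049 CPM and the lymphoid chemokine Ccl21a at 344 CPM. It was low in adipocyte and matrix genes, with Lep at 147 CPM, Sfrp5 at 22.9 CPM, Npr3 at 46.3 CPM, Rbp4 at 206 CPM, Mgll at 729 CPM, Col3a1 at 903 CPM and Col6a3 at 169 CPM. Cox8a at 1393 CPM and Per2 at 2.86 CPM were also its lowest values. Without this library 1315 genes were higher and 1160 lower, and Per2, Mgll, Rbp4, Cox8a, Col3a1 and Col6a3 were still called, while Igkc and Ccl21a were not.

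In the other ND libraries, number 4 was low in Unc45bos (0.386 CPM) and high in Fcgr4 (4.24 CPM), number 2 was low in Adrb3 (68.0 CPM) and Pcna (4.87 CPM), and number 6 was high in Ucp1 (43.0 CPM). Among the diet-switch libraries, number 4 was high in T and NK cell genes (2.64 log2 CPM) and in Igha (4.92 CPM), number 3 was high in Pdia4 (82.0 CPM), and number 2 was low in Slc25a25 (9.68 CPM).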

How the results depend on the processing

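The counts fell below the 1260 higher and 1078 lower genes by over 1.5 times under several settings. They were 67 and 45 without diet-switch libraries 3, 4 and 7, 768 and 702 with the 16 samples alone, 24 and 11 in the test against a 1.5-fold change, and 680 lower without the samples high in muscle genes. Leaving out single libraries gave 708 to 1605 higher and 613 to 1470 lower. Without libraries 3, 4 and 7, DESeq2 gave 167 and 165, limma-voom 91 and 89, and the 16 samples alone 34 and 33; these 3 settings were chosen after seeing the data, and fewer samples enter each. Of 111 named genes called, 43 were still called without those libraries, 92 under every single omission and 14 under every setting. Some named genes were chosen because they were also called without those libraries, so part of the 43 was fixed in advance. Over all genes, 110 of the 2338 calls held without them. limma-voom with all libraries called 1198 lower and 1089 higher.

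Same-numbered samples had correlations of deviations from -0.17 to 0.16 (2 of 8 pairs above 0.1, and 1 of 8 samples best with its own number). These values show no pairing by number but cannot exclude one. With the replicate block 1263 genes were higher and 1229 lower, and 106 of the 111 named genes were called.

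Signs of log2 fold changes differed from the reported ones in 11 genes, none of them called in either case. Without libraries 3, 4 and 7 (edgeR, DESeq2, 16 samples alone) Acly was at 0.10, 0.091 and 0.079, Elovl6 at 0.028, 0.021 and 0.0079, Srebf1 at 0.11, 0.11 and 0.10, Scd1 at -0.13, -0.14 and -0.14, Slc2a4 at -0.027, -0.035 and -0.039, and Gpx3 at -0.23, -0.23 and -0.24. With limma-voom and the same omission Acly was at 0.0051, Srebf1 at 0.050, Scd1 at -0.24, Slc2a4 at -0.044, Gpx3 at -0.26, Itgax at 0.26 and Ucp1 at 0.69. With limma-voom and all libraries Scd1 was at -0.057, Gpx3 at -0.17, Itgax at 0.29, Ucp1 at 0.94 and Col1a1 at -0.078. Without the samples high in muscle genes Acly was at 0.089, Elovl6 at 0.28, Srebf1 at 0.066, Adipoq at 0.010, Gpx3 at -0.24, Hmgcs1 at 0.12 and Ucp1 at 3.31. With the replicate block Adipoq was at 0.0011, Itgax at 0.0037, Ucp1 at 0.97 and Col1a1 at -0.033. GC offsets gave 0.070 for Srebf1, and removal of abundant RNAs gave -0.012 for Scd1 and -0.0075 for Slc2a4. Single omissions gave ranges of -0.12 to 0.094 for Scd1, -0.10 to 0.066 for Adipoq, -0.11 to 0.083 for Slc2a4, -0.28 to 0.16 for Itgax, -1.17 to 2.30 for Ucp1, -0.22 to 0.20 for Col1a1 and -0.18 to 0.11 for Gpx3. The cause was not tested. Depth limits low genes such as Dbp, whose ND median was 1.01 CPM, and Igha, at 0 counts in 5 diet-switch libraries.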

Other observations

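Other genes were called with all 8 and with 5 diet-switch libraries, and the ones named here were chosen after their values were seen. Ybx1, a DNA- and RNA-binding cold shock protein, ran from 503 through a median of 619 to 695 CPM after the switch and from 174 through 341 to 473 in ND, without overlap (0.91 ± 0.19, edgeR adjusted p = 0.00119; 0.96 with 5 libraries). Fbxo21, a substrate receptor of a ubiquitin ligase, ran from 88.8 through 107 to 173 CPM against 30.3, 52.7 and 75.5, again without overlap (1.19 ± 0.18, adjusted p = 5.34e-05). Slc6a6, the taurine transporter, ran from 161 through 212 to 284 CPM against 95.3, 117 and 150 (0.82 ± 0.18, adjusted p = 0.00235), beside an HFD minus ND value of 1.10. Mertk, a macrophage receptor for the clearance of dying cells, was higher by 0.86 ± 0.17 (adjusted p = 0.000933), and Plod2, a lysyl hydroxylase of collagen crosslinking, by 1.53 ± 0.29 (adjusted p = 0.000736). All 8 diet-switch libraries lay above the ND median for these 5 genes.

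Among the decreases, Id3, an inhibitor of helix-loop-helix transcription factors, ran from 23.4 through 54.3 to 110 CPM against 96.1, 174 and 207 (-1.34 ± 0.23, adjusted p = 0.000256; -1.03 with 5 libraries). Snrpb, a core protein of the spliceosome, ran from 43.3 through 73.9 to 91.0 CPM against 103, 140 and 159, without overlap (-0.97 ± 0.15, adjusted p = 3.83e-05). Slc25a25, a mitochondrial carrier of ATP and magnesium, was lower by -1.20 ± 0.21 (adjusted p = 0.000235), and by -1.29 with 5 libraries. All 8 diet-switch libraries lay below the ND median for the 3.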
